A study of Mus musculus with 8 samples.

Results

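The genes described are 10 that mark or guide the tip cells of growing vessels. They are the apelin pair Apln and Aplnr, the CXCL12 ligand gene Cxcl12 with its receptor genes Cxcr4 and Ackr3, the growth factor gene Pdgfb, and the tip cell markers Esm1, Igfbp3, Kcne3 and Trp53i11. They were chosen by name, and all 10 of 10 were found among the 23337 gene symbols of the table, Ackr3 under its older symbol Cxcr7. All 10 also passed the filter for testing, at least 10 normalised reads on average across the compared libraries, which 13480 genes met. RNA of cells sorted by flow cytometry as endothelial cells from whole mouse embryos at embryonic stage E15.5 was sequenced after ribosomal RNA depletion. In the tamoxifen group the pregnant females had been given tamoxifen by gavage at E12.5, and in the other group they had not. Per the labels both groups carry Cdh5-CreERT2(PAC), a tamoxifen-inducible Cre driven by the promoter of the endothelial cadherin gene, and Rosa26fsTRAP, a Cre-dependent ribosome-tagging reporter, while the genotype field says wild type. Tamoxifen and Cre activation therefore cannot be told apart. The labels list 4 samples per group and do not say whether they are separate litters or embryos, so a p-value reflects only how far these libraries differ among themselves, which may be technical.

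The table has 9 header fields over 10 data fields, so the 8 library names can stand over the first or the last 8 value columns. Counting the gene symbol as column 1, columns 7 to 9 have tamoxifen names and columns 3 to 5 have names of the group without it either way. These 6 libraries, called tamoxifen_1 to tamoxifen_3 and no_tamoxifen_1 to no_tamoxifen_3 in table order, were compared. Columns 6 and 10, whose group depends on the placement, are shown apart. The 6 libraries held 12212472 to 19908404 reads in genes, of which the ribosomal RNA precursor Rn45s took 29.4% to 38.7%.

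Apelin, secreted from sprouting endothelial cells, acts on the G protein-coupled receptor APLNR of neighbouring endothelial cells. CXCL12 is a chemokine made mostly by stromal, mural and some arterial endothelial cells. It signals through CXCR4, which tip cells, arterial endothelium and many blood cells carry, and is bound and cleared by the atypical receptor ACKR3. Platelet-derived growth factor B, secreted by tip cells, recruits pericytes that carry PDGFRB.

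The libraries differed in cell type markers. Tamoxifen_1 and tamoxifen_2 stood apart from the other 4 by connective tissue transcripts. The summed level of 10 mesenchymal markers, none of them at 0, ranged over 4487 to 87053 normalised reads with tamoxifen, against 2016 to 4328 without it. Col1a1, which encodes a chain of type I collagen, was at 26219, 42746 and 1988 in tamoxifen_1 to tamoxifen_3, and at 1866, 1179 and 896 without tamoxifen. Tamoxifen_3 was lowest of the 6 in endothelial markers. The summed level of 16 of them ranged over 9249.8 to 22999 in the tamoxifen libraries, against 13430.1 to 20931.5 in those without, and none was at 0. Cdh5 itself was at 5201, 4778 and 1978 in the tamoxifen libraries and at 5020.3, 4282 and 2948 in those without tamoxifen. Macrophage markers were abundant throughout, with a summed level of 36577 to 58386 normalised reads in tamoxifen libraries, against 48509.9 to 55620.7 in those without. Blood progenitor and neutrophil markers, 7 in the table, summed to 57371 to 69693 with tamoxifen, against 51600.0 to 84109 without it. Cartilage markers, 6 in number, summed to 16004, 13926 and 659 with tamoxifen, against 484 to 698 without it, and 9 mural markers to 2241, 2402 and 781, against 673 to 1059. The part of any of these in the results below was not tested. Fewer cells of a type and less RNA per cell cannot be told apart in such bulk libraries.

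The 200 bases before the start of 4 of the 10 genes are shown as examples. Sequences are from RefSeq on GRCm38.p6, read 5′ to 3′ on the gene's strand, and 8 of the 10 genes matched an entry. Apln and Esm1 are shown as a secreted ligand gene and a much used marker of tip cells, and Cxcl12 and Cxcr4 as a ligand and its receptor with the widest and the narrowest range of the 10 genes over the 6 libraries. Capitals mark matches on either strand to the GC box GGGCGG or the TATA box TATAAA, and neighbouring matches of 1 motif overlap in places. The Apln window is chrX:48034854-48035053 on the minus strand, the Esm1 window chr13:113209459-113209658 on the plus strand, the Cxcl12 window chr6:117168335-117168534 on the plus strand and the Cxcr4 window chr1:128592300-128592499 on the minus strand.
Apln: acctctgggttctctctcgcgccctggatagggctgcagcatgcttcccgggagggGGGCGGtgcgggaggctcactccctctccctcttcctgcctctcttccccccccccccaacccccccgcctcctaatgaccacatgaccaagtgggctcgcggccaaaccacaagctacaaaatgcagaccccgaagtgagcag
Esm1: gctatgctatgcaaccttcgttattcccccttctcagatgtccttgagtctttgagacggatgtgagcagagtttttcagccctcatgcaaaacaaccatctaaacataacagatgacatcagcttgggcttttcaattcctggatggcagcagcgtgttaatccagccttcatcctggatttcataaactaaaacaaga
Cxcl12: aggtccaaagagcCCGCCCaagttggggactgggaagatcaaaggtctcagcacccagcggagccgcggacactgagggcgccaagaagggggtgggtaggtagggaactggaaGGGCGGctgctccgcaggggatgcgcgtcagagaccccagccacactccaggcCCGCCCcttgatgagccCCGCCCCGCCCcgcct
Cxcr4: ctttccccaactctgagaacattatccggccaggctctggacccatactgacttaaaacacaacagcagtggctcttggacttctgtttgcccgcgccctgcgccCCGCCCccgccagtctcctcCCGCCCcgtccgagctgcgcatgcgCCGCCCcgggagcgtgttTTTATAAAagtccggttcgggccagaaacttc
The GC box was matched 1 time before Apln, 5 times before Cxcl12, 3 times before Cxcr4 and 0 times before Esm1, and 31% of 32851 RefSeq windows of this length hold it. The TATA box was matched only before Cxcr4 among these 4, at 32 and 30 bases before the start, and 9.96% of windows hold it. The hypoxia response core ACGTG and the ETS core CCGGAA were in none of the 4, against 14% and 10.7% of windows. Matches are letters in this window and not sites.

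For none of the 10 genes did the difference between tamoxifen and no tamoxifen pass an adjusted p of 0.05. In limma with Benjamini-Hochberg adjustment over 13480 genes, 0 of the 10 were called, where 0.0445% of all tested genes were. At an unadjusted limma p under 0.05 the count was also 0 of 10, against 9.01% of all tested genes. The count tests on recovered reads called 0 of 10 as well, where edgeR called 0.0371% and DESeq2 2.04% of all tested genes. At an unadjusted p under 0.05 each of these 2 tests had 1 of 10, Cxcl12. Over all 13480 tested genes, edgeR had 923 higher and 417 lower at that threshold, and DESeq2 833 higher and 440 lower. The 10 log2 differences ranged from -0.52 for Aplnr to 1.55 for Cxcl12, with 9 positive and a median of 0.19, against -0.02 over all tested genes. Intervals were wide, and only for Cxcr4 did the 95% interval stay within a log2 difference of 0.5 in either direction.

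**Figure D1:**
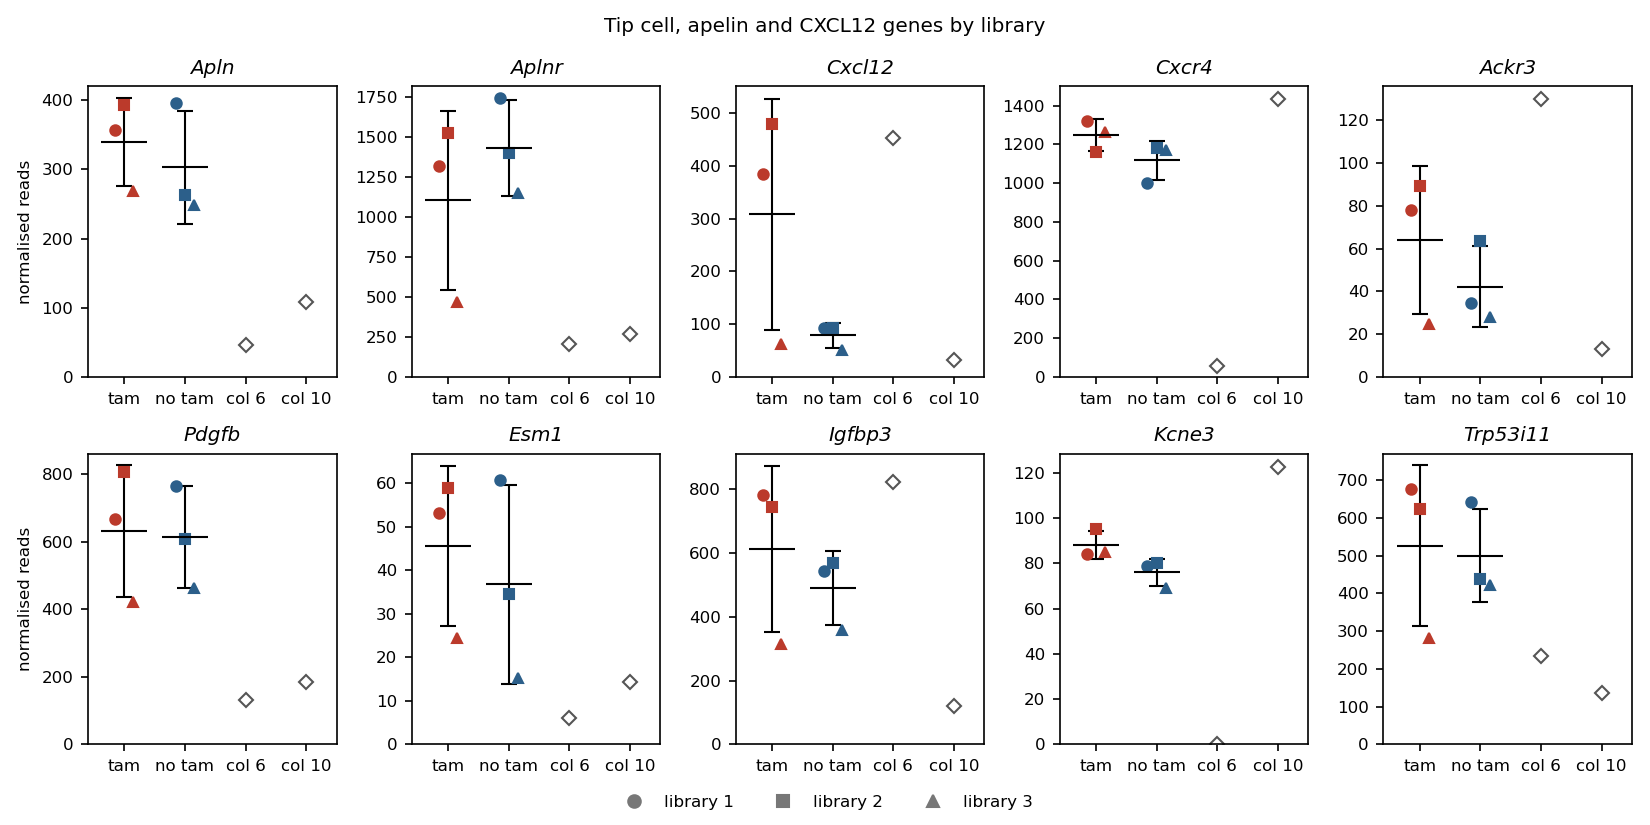
Normalised reads (y axis, from 0) of each of the 10 genes in the tamoxifen (tam) and no tamoxifen (no tam) libraries, with mean and SD as bars (n = 3 each) and the table's columns 6 and 10 as open diamonds. Groups overlap for every gene but Kcne3, and Cxcl12 is at 384 and 479 in tamoxifen_1 and tamoxifen_2 and at 61.7 in tamoxifen_3.

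Levels per length put Cxcr4 and Aplnr, the main receptor genes of the 2 ligands, above the other 8. Per kilobase of exon (the union of GENCODE M21 exons), the mean over the 6 libraries was 655 normalised reads for Cxcr4 and 342 for Aplnr. Igfbp3 at 176, Pdgfb at 149.7, Trp53i11 at 139 and Apln at 102 normalised reads per kilobase came next. Kcne3 at 46.1, Cxcl12 at 23.7, Esm1 at 19.7 and Ackr3 at 15.8 were lowest. Only 2 neighbours in this order were separated in range, Cxcr4 from Aplnr and Apln from Kcne3. Every other pair of neighbours overlapped in its range over the 6 libraries, although Aplnr was above Igfbp3 in 6 of 6.

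The apelin ligand and receptor did not move alike. Apln, the ligand gene, had 357, 392 and 269 normalised reads in the tamoxifen libraries and 397, 264 and 249 in those without tamoxifen. The groups overlapped, and all 3 tamoxifen values lay within the range without tamoxifen. Its log2 difference was 0.18 ± 0.22 (SE, limma adjusted p = 0.829) with a 95% interval of -0.32 to 0.67. Apln lies on chromosome X at 48025146 to 48034853 on the minus strand of GRCm38.

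Aplnr, the apelin receptor gene, had 1319, 1523 and 467 normalised reads with tamoxifen and 1741, 1400.0 and 1148 without it. Tamoxifen_3 was the lowest library by far, and the other 2 lay within the range without tamoxifen. On the log2 scale the difference was -0.52 ± 0.40 (SE, limma adjusted p = 0.704). It was 0.0082 without tamoxifen_3 (limma adjusted p = 0.983), and -1.59 ± 0.21 when only tamoxifen_3 stood for the tamoxifen group (limma adjusted p = 0.00508), a call of lower that 0.467% of all tested genes shared. That last value rests on 1 tamoxifen library, which is assumed to vary like those without tamoxifen. Aplnr lies on chromosome 2 at 85136225 to 85139923 on the plus strand.

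The ratio of Apln to Aplnr reads was 0.270, 0.258 and 0.577 in the tamoxifen libraries and 0.228, 0.188 and 0.217 in those without tamoxifen. The groups did not overlap, but the mean of 0.368 ± 0.181 with tamoxifen against 0.211 ± 0.020 without it (SD, n = 3 each) rests on tamoxifen_3. In the columns shown apart the ratio was 0.225 in column 6 and 0.405 in column 10. This ratio was chosen with the values known and carries no test.

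The CXCL12 ligand gene had the widest spread of the 10. Cxcl12 had 384, 479 and 61.7 normalised reads in the tamoxifen libraries and 92.0, 92.9 and 51.7 in those without tamoxifen. Tamoxifen_1 and tamoxifen_2 were above every other library, as they were for Col1a1, whereas tamoxifen_3 lay inside the range without tamoxifen. The mean was 308 ± 219 with tamoxifen and 78.9 ± 23.5 without it (SD, n = 3 each). That is a log2 difference of 1.55 ± 0.69 (SE, limma adjusted p = 0.551), with a 95% interval of -0.02 to 3.12. Without tamoxifen_3 it was 2.48 ± 0.25 and called (limma adjusted p = 5.51e-06), as were 7.22% of all tested genes in the direction of higher. When only tamoxifen_3 was kept in the tamoxifen group it was -0.30 ± 0.38 (limma adjusted p = 0.887). Cxcl12 lies on chromosome 6 at 117168535 to 117181367 on the plus strand of GRCm38.

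Cxcr4, the signalling receptor gene of CXCL12, was one of the steadiest of the 10. It had 1321, 1158 and 1266 normalised reads with tamoxifen and 1003, 1180 and 1173 without it. The groups overlapped, with 2 of 3 tamoxifen libraries above every library without tamoxifen, and the highest of the 6 was 1.32 times the lowest. A log2 difference of 0.16 ± 0.11 (SE, limma adjusted p = 0.675) was found, with a 95% interval of -0.09 to 0.41. Column 6 held 54.9 normalised reads of Cxcr4 and a summed macrophage marker level of 905, both below all 6 libraries. The receptor gene lies on chromosome 1 at 128588199 to 128592293 on the minus strand.

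Ackr3, the gene of the scavenging receptor, was low in all libraries, with 35 to 94 recovered reads. It had 77.9, 89.3 and 24.5 normalised reads with tamoxifen and 34.7, 63.7 and 28.2 without it. Tamoxifen_1 and tamoxifen_2 were above every library without tamoxifen and tamoxifen_3 below every one, the same split as for Igfbp3. Its log2 difference was 0.48 ± 0.52 (SE, limma adjusted p = 0.798), 1.05 ± 0.34 without tamoxifen_3 (limma adjusted p = 0.0602) and -0.67 ± 0.49 with tamoxifen_3 alone (limma adjusted p = 0.774). Ackr3 lies on chromosome 1 at 90203980 to 90216751 on the plus strand.

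As a ratio of reads, Cxcl12 to Cxcr4 was 0.291, 0.413 and 0.0488 in the tamoxifen libraries and 0.0917, 0.0788 and 0.0441 in those without tamoxifen. Only tamoxifen_1 and tamoxifen_2 stood above the rest. Reads of Cxcr4 outnumbered those of Ackr3 17.0, 13.0 and 51.6 times with tamoxifen and 28.9, 18.5 and 41.7 times without it, so the groups overlapped.

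Pdgfb, whose product draws pericytes to the sprout, showed almost no difference in its mean. It had 668, 807 and 422 normalised reads in the tamoxifen libraries and 766, 609 and 464 in those without tamoxifen. The tamoxifen values lay on either side of the others, with tamoxifen_2 highest and tamoxifen_3 lowest of the 6. They gave a log2 difference of 0.02 ± 0.26 (SE, limma adjusted p = 0.987), with a 95% interval of -0.57 to 0.61. Pdgfb lies on chromosome 15 at 79995874 to 80014977 on the minus strand, where it overlaps the annotated genes Mir7213 and Gm41361.

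Esm1, which encodes the secreted proteoglycan endocan and is among the most used tip cell markers, was one of the lowest of the 10. It had 53.3, 58.9 and 24.5 normalised reads with tamoxifen and 60.7, 34.6 and 15.2 without it. The groups overlapped fully, and the spread was as wide without tamoxifen as with it. The highest library was 3.99 times the lowest, on 20 to 70 recovered reads, and the log2 difference was 0.41 ± 0.53 (SE, limma adjusted p = 0.845). Its 95% interval was -0.81 to 1.63, and the SD of its log2 values was 0.67 with tamoxifen and 0.97 without it. Esm1 lies on chromosome 13 at 113209659 to 113218098 on the plus strand and overlaps Gzmk on the other strand, which is listed at 0 in all 8 columns used.

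Igfbp3, which encodes a secreted carrier of insulin-like growth factors, split the tamoxifen libraries. It had 781, 744 and 313 normalised reads with tamoxifen and 542, 568 and 357 without it. Tamoxifen_1 and tamoxifen_2 were above, and tamoxifen_3 below, every library without tamoxifen. The log2 difference was 0.24 ± 0.34 (SE, limma adjusted p = 0.860). It became 0.67 ± 0.18 without tamoxifen_3 and was called (limma adjusted p = 0.0220), as were 7.22% of all tested genes in the direction of higher. With tamoxifen_3 alone it was -0.61 ± 0.25 (limma adjusted p = 0.413). Igfbp3 lies on chromosome 11 at 7206086 to 7213923 on the minus strand.

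Kcne3, which encodes a regulatory subunit of voltage-gated potassium channels, was the only one of the 10 whose groups did not overlap. It had 84.0, 95.01 and 84.9 normalised reads in the tamoxifen libraries and 79.0, 79.9 and 69.2 in those without tamoxifen. The gap is small, from 79.9 to 84.0, on 74 to 121 recovered reads. Of all tested genes, 6.24% did not overlap with tamoxifen higher and 7.62% with tamoxifen lower, so 1 and 0 of 10 are near the background. The log2 difference was 0.21 ± 0.19 (SE, limma adjusted p = 0.760). Kcne3 lies on chromosome 7 at 100176502 to 100184869 on the plus strand and overlaps the annotated gene Gm34821 on the other strand.

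Trp53i11, a p53-inducible membrane protein gene listed among tip cell markers, had 675, 622 and 281 normalised reads with tamoxifen and 641, 438 and 421 without it. Tamoxifen_3 was the lowest of the 6 and tamoxifen_1 the highest. The log2 difference was 0.00069 ± 0.32 (SE, limma adjusted p = 0.9998), 0.40 ± 0.17 without tamoxifen_3 (limma adjusted p = 0.160) and -0.80 ± 0.24 with tamoxifen_3 alone (limma adjusted p = 0.163). Trp53i11 lies on chromosome 2 at 93187548 to 93201759 on the plus strand.

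**Figure D2:**
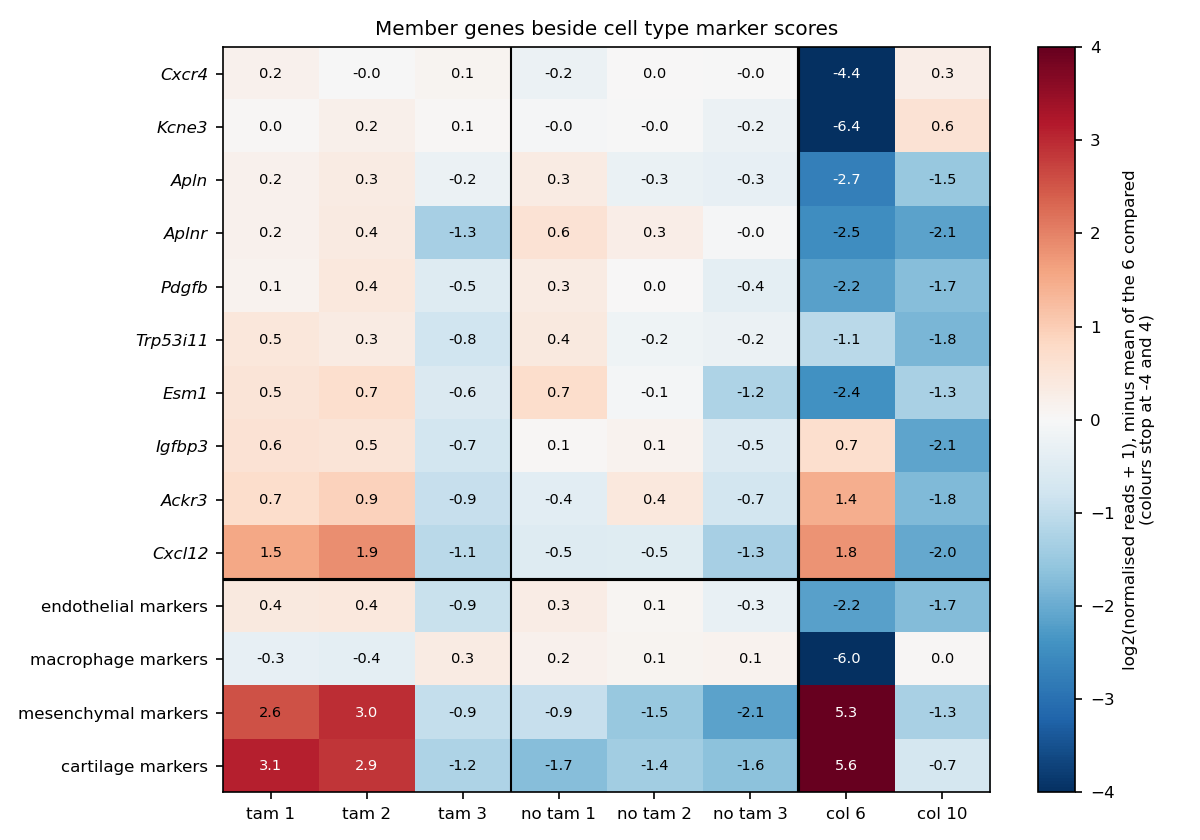
Each cell gives log2(normalised reads + 1) minus the mean of the 6 compared libraries, for the 10 genes (above the line) and for the mean of 4 marker lists (below it), in tamoxifen (tam), no tamoxifen (no tam) and columns 6 and 10 (col). Cxcl12, Ackr3 and Igfbp3 are high in tamoxifen_1, tamoxifen_2 and column 6, as mesenchymal markers are. Cxcr4 and Kcne3 are near 0 in all 6 and low in column 6, where macrophage and endothelial markers are both low.

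Set beside the marker lists, 8 of the 10 genes, all but Cxcr4 and Kcne3, were lower in tamoxifen_3 than in the other 2 tamoxifen libraries, as the endothelial and the mesenchymal scores were. The endothelial score, the mean log2(normalised reads + 1) of 16 markers, was 9.92, 9.95 and 8.62 with tamoxifen and 9.80, 9.60 and 9.21 without it. Of the 8, Cxcl12, Ackr3 and Igfbp3 were also higher in tamoxifen_1 and tamoxifen_2 than in any library without tamoxifen. So was Kcne3, which is not one of the 8, and so were both the endothelial and the mesenchymal score. The shares of all tested genes with this split, or lowest in tamoxifen_3 among the tamoxifen libraries, were not counted. The mesenchymal score, over 10 markers, was 10.2, 10.6 and 6.72 with tamoxifen and 6.74, 6.15 and 5.52 without it. Such groupings overlap, and the members nearest to Igfbp3 in profile were Trp53i11 and Pdgfb, at root mean square differences of 0.240 and 0.248 on the log2 scale. Apln was higher in tamoxifen_3 than in no_tamoxifen_2 and no_tamoxifen_3, where the endothelial score was higher. Cxcr4 and Kcne3 varied least, with log2 ranges over the 6 libraries of 0.40 and 0.45, against a median of 0.61 over all tested genes. Cxcl12 at 3.19 had the widest range, followed by Esm1 at 1.93, Aplnr at 1.90 and Ackr3 at 1.82.

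Relative to Cdh5, the endothelial gene whose promoter drives the Cre, some of the spread was smaller. Igfbp3 stood at 15.01, 15.6 and 15.8 reads per 100 Cdh5 reads in the tamoxifen libraries and at 10.8, 13.3 and 12.1 in those without tamoxifen, so that tamoxifen_3 no longer stood apart from the other 2. Aplnr stood at 25.4, 31.9 and 23.6 per 100 with tamoxifen and at 34.7, 32.7 and 38.9 without it. Cxcl12 stood at 7.39, 10.02 and 3.12 per 100 with tamoxifen and at 1.83, 2.17 and 1.76 without it. On this ratio the groups did not overlap with tamoxifen higher for 2 of the 10, Cxcl12 and Igfbp3, against 6.04% of all tested genes, and with tamoxifen lower for 1, Aplnr, against 0.341%. Cdh5 was lowest in tamoxifen_3, so dividing by it raises that library for genes that did not fall as far. The 0.341% is therefore no background for genes that vary with Cdh5. The counts of members were made with the values known and carry no test.

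Other members gained spread on that ratio. Cxcr4 stood at 25.4, 24.2 and 64.0 reads per 100 Cdh5 reads with tamoxifen and at 19.98, 27.5 and 39.8 without it, a 3.20-fold range against 1.32-fold in normalised reads. Kcne3 ranged 2.73-fold on it, against 1.37-fold in normalised reads, and Apln 2.21-fold, against 1.59-fold. Trp53i11, by contrast, ranged 1.40-fold per Cdh5 read and 2.40-fold in normalised reads, and Esm1 2.40-fold and 3.99-fold.

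When all log2 values were centred in each library on the 16 endothelial markers and refitted, 0 of the 10 were called, where 1.31% of all tested genes were. Cxcl12 had the lowest p, at 1.60 ± 0.53 (SE, limma adjusted p = 0.150). Aplnr was at -0.48 ± 0.58 (limma adjusted p = 0.9999) and Igfbp3 at 0.29 ± 0.56 (limma adjusted p = 0.9999). The SEs of the 10 genes lay close together in this fit, from 0.53 for Cxcl12 to 0.58 for Cxcr4. They draw on a spread shared over all genes and say little about the spread of 1 gene. The separation of Aplnr and Igfbp3 relative to Cdh5 alone was not itself tested.

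**Figure D3:**
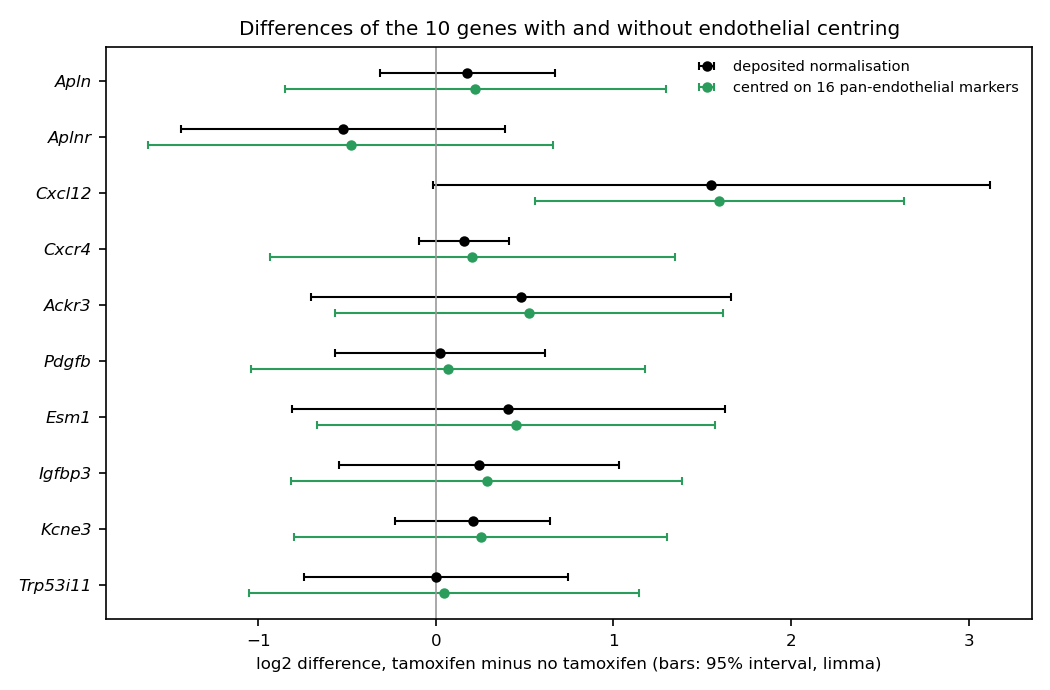
Log2 differences, tamoxifen minus no tamoxifen (x axis), with 95% intervals from limma on 3 libraries per group, for the deposited normalisation (black) and after centring on 16 endothelial markers (green). Every black interval includes 0, the nearest to excluding it being Cxcl12 at -0.02 to 3.12. The green interval of Cxcl12, 0.56 to 2.64, excludes 0, but Cxcl12 was not called after adjustment.

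Columns 6 and 10 had different genes high. Column 6 held 454 normalised reads of Cxcl12, 130.2 of Ackr3 and 822 of Igfbp3, but only 46.8 of Apln, 6.10 of Esm1 and 0 of Kcne3. Its summed mesenchymal marker level was 450099 and its summed endothelial level 3885. Column 10 held 1432 normalised reads of Cxcr4 and 122 of Kcne3, the highest of all 8 columns used, but 31.2 of Cxcl12, 109 of Apln, 268 of Aplnr and 14.4 of Esm1. Its summed endothelial level was 5834 and its summed mesenchymal level 3259. If the header names belong to the last 8 value columns, column 6 joins the group without tamoxifen and column 10 the tamoxifen group, and Cxcr4 was then at 1.29 and Kcne3 at 1.89 on the log2 scale. With the names over the first 8, column 6 joins the tamoxifen group, and Cxcr4 was at -0.96 and Kcne3 at -1.41. That placement also names the first value column, which was not used, as a library without tamoxifen, so these values compare 4 tamoxifen columns with 3 without and leave that column out. No member was called in limma under either placement. The direction for Apln, Ackr3, Igfbp3, Esm1 and Pdgfb also differed between the 2 placements.

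**Figure D4:**
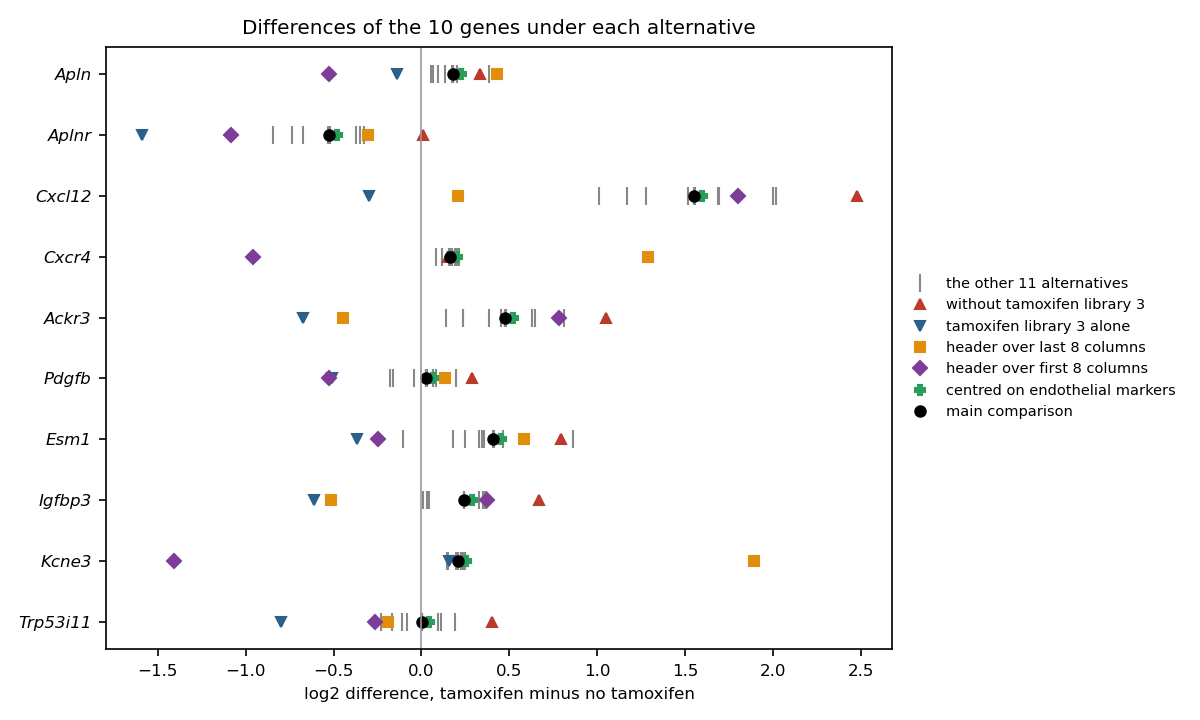
Log2 differences, tamoxifen minus no tamoxifen (x axis), of each gene in the main comparison (black) and under 16 alternatives, 5 of them by symbol. Cxcl12 runs from -0.30 with tamoxifen_3 alone to 2.48 without it, while Cxcr4 and Kcne3 move mainly with the 2 header placements.

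By the distance between centred profiles over the 6 libraries, the genes nearest to Apln were Tpbg, which encodes trophoblast glycoprotein, and the Wnt receptor gene Fzd8. Their root mean square differences from it were 0.078 and 0.086 on the log2 scale, among 10244 candidates. Nearest to Esm1 were the potassium channel gene Kcna5 (0.194) and the BCL2 family gene Bok (0.216). Nearest to Cxcl12 were the proprotein convertase gene Pcsk5 (0.105) and the microfibril gene Fbn1 (0.107). Fbn1 had 2501, 3743 and 439 normalised reads with tamoxifen and 757, 708 and 378 without it, the same split of the tamoxifen libraries. The marker genes Cdh5 and Col1a1 were both much farther from Cxcl12, at 0.978 and 1.04. Nearest to Cxcr4 were the cyclin gene Ccnt2 (0.025) and Ankrd10 (0.035). With 6 libraries such likeness is a description only.

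Other tip cell genes gave no call. Of 21 listed, 20 were tested, 14 were positive and 6 negative, and the median log2 difference was 0.09, against -0.02 over all tested genes. The lowest p values belonged to the sulfotransferase gene Chst1 (0.57 ± 0.29, SE, limma adjusted p = 0.598), the activin subunit gene Inhbb (0.73 ± 0.52) and the adrenomedullin gene Adm (0.51 ± 0.46). Chst1 had 235, 339 and 186 normalised reads with tamoxifen and 244, 126 and 147 without it, so its groups overlapped.

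Genes around the apelin and CXCL12 receptors were not called either. In the apelin list 0 of 8 tested genes passed and the median was -0.06. The peptidase gene Mme, whose product cleaves apelin, was at 19.5, 40.9 and 5.61 normalised reads with tamoxifen and 1.74, 5.40 and 2.28 without it, at 2.21 ± 0.79 (SE, limma adjusted p = 0.484). The G protein subunit genes Gnai3 and Gna13 were at -0.21 ± 0.13 and -0.24 ± 0.14. In the CXCL12 list 0 of 17 passed and the median was 0.09. Dpp4, whose product inactivates CXCL12 by cleavage, had 236, 224 and 51.9 normalised reads with tamoxifen and 81.6, 81.0 and 67.0 without it (0.87 ± 0.52, SE, limma adjusted p = 0.630). As for Cxcl12, tamoxifen_1 and tamoxifen_2 were above the other 4 libraries. The cytokine gene Mif, a further CXCR4 ligand, was at 0.35 ± 0.20, and the G protein regulator gene Rgs16 at 0.79 ± 0.38. The 2 lists share 5 genes.

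The other partner lists held the lowest p values near PDGF and insulin-like growth factor genes. In the PDGF list 0 of 8 passed and the median was 0.12. Pdgfrb, the receptor gene for PDGF-B, had 542, 589 and 495 normalised reads with tamoxifen and 449, 319 and 368 without it (0.53 ± 0.15, SE, limma adjusted p = 0.462). Its groups did not overlap, nor did those of Pdgfa, Mme and Igfbp6, all with tamoxifen higher. They are 2 of 8 tested genes in the PDGF list, 1 of 8 in the apelin list and 1 of 10 in the insulin-like growth factor list. That last list also held Tmem219, whose groups did not overlap with tamoxifen lower. Of all tested genes, 6.24% did not overlap with tamoxifen higher and 7.62% with tamoxifen lower. Genes named for a low p are apt to separate. Pdgfrb is also one of 9 mural markers, whose mean score was 7.28, 7.37 and 4.64 with tamoxifen and 5.93, 5.29 and 4.97 without it. Pdgfra, a mesenchymal marker, was at 3.08 ± 0.95 and the ligand gene Pdgfa at 0.54 ± 0.34. In the list of insulin-like growth factors and their binding proteins 0 of 10 passed and the median was 0.16. The binding protein genes Igfbp5 (1.69 ± 0.55) and Igfbp6 (2.22 ± 0.71) had the lowest p, with limma adjusted p values of 0.474 and 0.471, followed by the clearance receptor gene Igf2r (0.48 ± 0.30). Igfbp5 had 851, 1089.7 and 219 normalised reads with tamoxifen and 200.4, 244 and 123 without it, high in the same 2 libraries as Igfbp3. Of 8 other KCNE subunit and potassium channel genes only Kcnq1 (0.23 ± 0.54) and Kcnh2 (0.16 ± 0.66) reached the filter, and 0 of 2 passed.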

How the data were processed

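The authors deposited normalised read counts, a signal unit, per gene symbol. HTSeq 0.11.2, STAR and DESeq2, and the builds mm10 and hg38, are listed in the submitters' processing notes without roles. The sources used here do not say whether counting used strand. In all 8 columns used, 100% of values were whole multiples of 1 step within 0.001 reads, so reads were recovered for edgeR 4.0.16 and DESeq2 1.42.0. A further 1 value column was not used.

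Groups were compared on log2(value + 1) with limma 3.58.1 (R 4.3.3; trended variance, no covariate) for the 13480 genes averaging at least 10 normalised reads, with Benjamini-Hochberg adjustment at 0.05. Fold changes on this scale understate those of low genes. The labels list 4 samples per group, and the short header left 3 columns per group with a settled name. The tests were checked on simulated data. Coordinates are 1-based on GRCm38 (mm10), GENCODE M21.

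The members, gene lists and settings were chosen with earlier results of these data known. All 10 members are named. From each pathway list the 3 tested genes of lowest p are named, and for Apln, Esm1, Cxcl12 and Cxcr4 the 2 nearest profiles among genes with a mean of at least 50, clone-type names left out. Alternatives covered the pseudocount, filter, tool, each library, a replicate block, header placement, endothelial centring and tamoxifen_3 alone.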

Additional observations from a re-analysis of the deposited data

Results flagged for a closer look

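Values in the 2 columns outside the comparison exceeded every library without tamoxifen for 5 gene and column pairs. In column 6 these were Cxcl12 at 454 normalised reads, Ackr3 at 130.2 and Igfbp3 at 822. In column 10 they were Cxcr4 at 1432 and Kcne3 at 122. Column 6 also had a summed mesenchymal marker level of 450099 and a summed macrophage level of 905, against 2016 to 4328 and 48509.9 to 55620.7 without tamoxifen. The part of these markers in the values was not tested. Groups of 3 are too small for the test for a single outlying library.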

How the results depend on the processing

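Among the 10 genes, 0 were called in 14 of 16 alternatives, the exceptions being 2 without tamoxifen_3 and 1 with tamoxifen_3 alone. Leaving out each library in turn gave 0 to 2 called members and 2 to 1442 called genes, against 6 in the main comparison. Both upper ends came from the fit without tamoxifen_3, where 973 genes were called higher and 469 lower. The 2 members called there were therefore 2 among 1442 genes. All-gene counts were 5 with edgeR and 275 with DESeq2, 21 with the replicate block, 0 with names over the first 8 value columns (402 higher and 153 lower at an unadjusted limma p under 0.05), 176 with endothelial centring and 91 with tamoxifen_3 alone. The replicate block called no member, but its intervals excluded 0 for Cxcl12 and Aplnr. Cxcl12 was at 1.55 ± 0.36 (SE, limma adjusted p = 0.154), with an interval of 0.72 to 2.38. Aplnr was at -0.52 ± 0.23 (SE, limma adjusted p = 0.436), with an interval of -1.04 to -0.0099. The SE fell for most members but rose for Cxcr4 and Kcne3. Same-numbered libraries had correlated deviations of 0.195, 0.036 and 0.345. Libraries of different number were not compared in this way, so these values do not decide whether the numbers pair them. The main comparison took them as unpaired.

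Directions turned as follows. With tamoxifen_3 alone the log2 differences were -0.67 for Ackr3, -0.14 for Apln, -0.30 for Cxcl12, -0.36 for Esm1, -0.61 for Igfbp3, -0.51 for Pdgfb and -0.80 for Trp53i11. With names over the first 8 columns, of which the first was not used, they were -0.53 for Apln, -0.96 for Cxcr4, -0.25 for Esm1, -1.41 for Kcne3, -0.53 for Pdgfb and -0.27 for Trp53i11. With names over the last 8 they were -0.44 for Ackr3, -0.51 for Igfbp3 and -0.19 for Trp53i11. Over the leave-outs Aplnr ran from -0.84 to 0.0082, Esm1 from -0.10 to 0.86, Pdgfb from -0.18 to 0.29 and Trp53i11 from -0.23 to 0.40. The causes were not tested. Fewest reads lay behind Esm1 (20 to 70 per library) and Ackr3 (35 to 94).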
